A study of Mus musculus with 3 samples.

Results

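The Six-family and Eya genes were examined for ubiquitinated histone H2A (H2AK119ub) in chromatin of newborn mouse tongue epithelium. They comprised 5 Six-family genes (Six2, Six3, Six4, Six5 and Six6) and 4 Eya genes (Eya1, Eya2, Eya3 and Eya4). A called region belonged to the set when the authors' annotation gave it the name of one of these genes, in any location class, or when it overlapped the bounds of one. By that rule 12 of 7838 regions in replicate 1 and 13 of 8093 regions in replicate 2 were kept, and they lay at 6 of the 9 genes. The data are ChIP-seq libraries, in which DNA bound to a modified histone is precipitated with an antibody and sequenced. The 2 H2AK119ub libraries formed 1 group, of control genotype at postnatal day 0, described by the submitters as biological replicates, and 1 input library of the same tissue was not analysed here. Sorting for EpCAM, an adhesion protein of epithelial cells, had been done on tongues without the posterior circumvallate taste papillae. No mutant or treated animals were among these samples, the labels name no strain, and they do not say how many animals went into a library.

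Six-family proteins are transcription factors with a homeodomain and a family-specific domain beside it, and they bind DNA at the promoters and enhancers of organ progenitor genes. Eya proteins do not bind DNA themselves. They attach to Six-family proteins as coactivators and also have tyrosine phosphatase activity. Together with Pax and Dach proteins these factors form a network that builds eye, ear, kidney, skeletal muscle and cranial sensory placodes. H2AK119ub is deposited by Polycomb repressive complex 1 (PRC1), whose marked domains lie over many developmental regulator genes that are silent in a given tissue. Some forms of the complex carry a subunit that recognises unmethylated CG dinucleotides.

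Regions in the promoter class covered 4 of the 5 Six-family genes and 2 of the 4 Eya genes in both replicates. The covered genes were Six2, Six3, Six4, Six6, Eya2 and Eya4, and the genes without any region were Six5, Eya1 and Eya3. This is 66.7% of the 9 genes, where 8.82% of the 21631 protein-coding genes (autosomes plus X) were named by a promoter region in both lists. Counting names in any location class gave the same 6 genes, against 15.3% of all protein-coding genes. Counting regions that overlapped the gene bounds by at least 1 bp also gave these 6, against 13.3% of all protein-coding genes. Replicate 1 alone and replicate 2 alone each named the same 6 genes by promoter regions, against 12.8 and 12.4% of all protein-coding genes. No gene of the set was thus marked in 1 replicate only. The lists give presence and position without height, score or read count, and depth is therefore unknown. A region called in a sorted population does not tell a mark carried by most cells from one carried by some of them. The group had no second condition, so the values are described without a test.

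**Figure D1:**
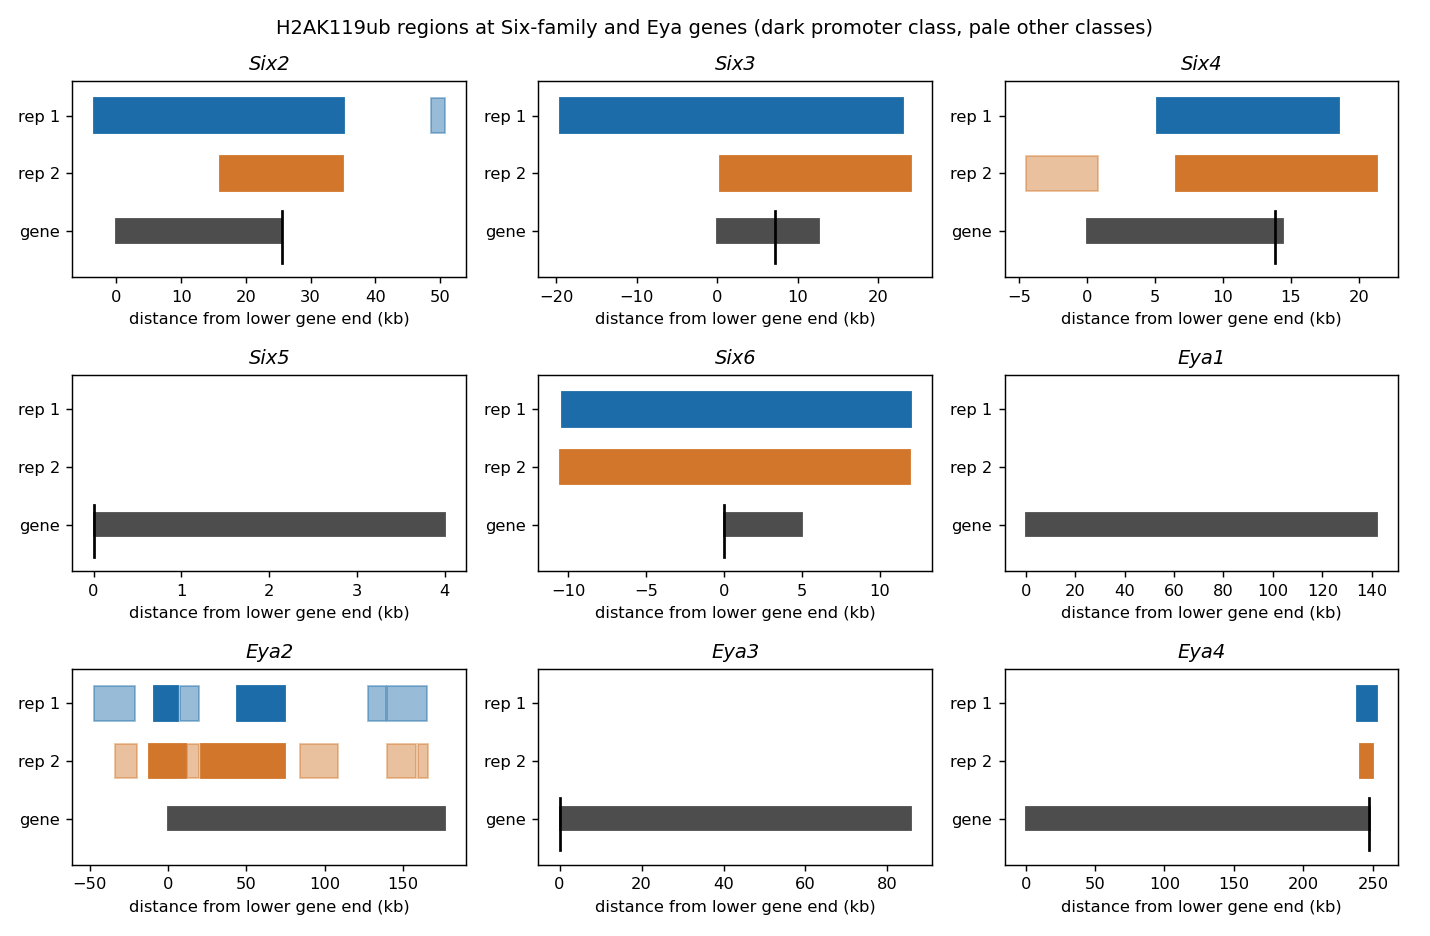
Regions of each replicate drawn to scale along the 9 genes, as distance in kb from the end of the gene with the lower coordinate. Grey bars are gene bounds, black ticks are the most upstream start in the RefSeq promoter table where it has one, dark bars are promoter regions and pale bars are regions of other classes. Six5, Eya1 and Eya3 have no bar, and Eya2 has 6 and 7.

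Six2 maintains the progenitor pool of the kidney nephron, and Six3 patterns the forebrain and eye. They lie 36.5 kb apart on chromosome 17 (mm10), and each had its own promoter region in both replicates. Six3 spans 85613608 to 85626191. Its region, which also carried the name of the opposite-strand noncoding gene Six3os1, ran from 85594035 to 85636654 in replicate 1 (42.6 kb) and from 85614004 to 85637674 in replicate 2 (23.7 kb). In replicate 2 a separate gene body region of 11.7 kb named for Six3os1 ended 1053 bp before the Six3 region. With regions closer than 5000 bp joined, the Six3 domain measured 42.6 kb in replicate 1 and 36.4 kb in replicate 2. The joined widths thus lay closer together than the deposited ones.

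Six2 spans 85662736 to 85688254 and is transcribed towards Six3. Its promoter region ran from 85659192 to 85697925 in replicate 1 (38.7 kb) and from 85678670 to 85697738 in replicate 2 (19.1 kb). The edges upstream of the Six2 start differed by 187 bp between replicates, at 9.67 and 9.48 kb from the start. The edges on the transcribed side lay 29.1 kb from the start in replicate 1 and 9.58 kb from it in replicate 2, so replicate 1 covered 100% of the gene and replicate 2 covered 37.6%. A distal region of 2.16 kb named for Six2, 23.1 kb beyond the gene, was present in replicate 1 only. It lay inside the bounds of the noncoding gene CJ186046Rik, whose bounds lie next to Six2 and whose nearer part the Six2 promoter regions also reached. Between the Six3 and Six2 regions 22.5 kb were free of a called region in replicate 1 and 41.0 kb in replicate 2.

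Six6, a gene of the eye and pituitary and the closest relative of Six3, had the best matched regions of the set. The gene spans 72939882 to 72944899 on chromosome 12. Its promoter region ran from 72929500 to 72951879 in replicate 1 (22.4 kb) and from 72929327 to 72951818 in replicate 2 (22.5 kb). The edges differed by 173 and 61 bp, and the stretch in both lists was 99.0% of the stretch in either. Over the 1908 genes with promoter regions in both lists, the widest promoter regions shared a median of 64.8% in the same measure (quartiles 42.9 and 81.7%), and 14.9% of their edges differed by less than 200 bp. Both regions extended about equally to the sides of the Six6 start, 10.4 and 10.6 kb upstream and 11.997 and 11.936 kb downstream, and covered all of the gene.

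Six4, which acts in muscle and sensory ganglion precursors, spans 73099609 to 73114031 on the same chromosome. Promoter regions of 13.4 kb (73104764 to 73118155, replicate 1) and 14.8 kb (73106165 to 73120949, replicate 2) lay over its start. They ran 4.73 and 7.52 kb upstream and 8.66 and 7.26 kb downstream of the most upstream start. The bounds of Six4 and of Mnat1, which encodes an assembly factor of the kinase complex that activates cyclin-dependent kinases, have 1.85 kb in common. The regions at the Six4 start reached 5970 and 8764 bp into the Mnat1 bounds, and the authors' annotation named them for Six4 alone. Regions named for Mnat1 were of the distal class and lay on the other side of Six4. In replicate 2 such a region of 5.30 kb overlapped the far end of Six4 by 793 bp. The Mnat1 region of replicate 1 (3.91 kb) lay outside Six4 and does not belong to the set.

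Eya2, a coactivator of muscle and sensory placode precursors, carried the most regions of the set, with 6 in replicate 1 and 7 in replicate 2. Of all protein-coding genes, 0.0786% (17 genes) were named for at least 6 regions in each list, a limit that was chosen after the values for Eya2 were seen. In replicate 1, 13 genes had more named regions than Eya2, and in replicate 2, 11 genes did. The gene spans 165595028 to 165771727 on chromosome 2 (177 kb), and its regions added up to 121 kb in replicate 1 and 146 kb in replicate 2. They shared 94.0 kb, which is 77.4% of the replicate 1 length and 64.3% of the replicate 2 length.

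In coordinate order, the regions named for Eya2 began before the gene in both lists. There lay a distal region, 26.3 kb wide and 21.3 kb from the gene in replicate 1, and 13.9 kb wide and 20.004 kb from the gene in replicate 2. Over the end of the gene nearest to it lay promoter regions of 15.4 and 23.2 kb, each followed by a gene body region of 12.4 and 7.32 kb. A further promoter region lay wholly inside the gene, with 30.9 kb (165638815 to 165669680) in replicate 1 and 53.4 kb (165616112 to 165669497) in replicate 2. The last edges of those internal regions differed by 183 bp, and their first edges by 22703 bp. With regions closer than 5000 bp joined, this part of Eya2 stood as stretches of 29.1 and 30.9 kb in replicate 1 and as a continuous stretch of 86.4 kb in replicate 2. Towards the other end of the gene, replicate 1 had gene body regions of 11.1 and 25.4 kb. Gene body regions of 18.2 and 6.27 kb in replicate 2 both overlapped the 25.4 kb region. The 11.1 kb region covered the noncoding gene Gm29993 and had no partner in replicate 2, and a gene body region of 23.9 kb in replicate 2 had none in replicate 1.

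Eya4, a gene of hearing and heart muscle, showed the opposite layout to Eya2. It is the longest gene of the set (248 kb, 23102962 to 23350838 on chromosome 10) and carried a lone region at its start. That region ran from 23341591 to 23355949 in replicate 1 (14.4 kb) and from 23343438 to 23352928 in replicate 2 (9.49 kb). It extended 6.01 and 2.985 kb upstream and 8.35 and 6.51 kb downstream of the start, and all of the replicate 2 region lay within the replicate 1 region. The rest of Eya4 had no region in either list.

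Six5, Eya1 and Eya3 had no region over them in either replicate. Six5 (19094544 to 19098549 on chromosome 7), whose loss in mice causes cataracts, lies 0.723 kb from the kinase gene Dmpk and overlaps the bounds of Bhmg1. The nearest region lay 70.6 kb away in replicate 1, a promoter region of 6.98 kb named for Sympk and Foxa3, and 32.1 kb away in replicate 2, a gene body region of 1.01 kb in Rsph6a. Eya3 (132639025 to 132724765 on chromosome 4), a widely expressed Eya gene, had its nearest region 124 kb away in replicate 1, named for Sesn2. In replicate 2 a promoter region of 2.04 kb named for the neighbouring gene Xkr8 lay 4.90 kb from it. Eya1 (14168953 to 14311035 on chromosome 1), whose loss in humans and mice disturbs ear, kidney and branchial arch development, lay farthest from any region among the 9 genes. Its nearest regions were intergenic and lay 189 and 188 kb away. Eya1 was the only gene of the 9 without a region within 100 kb in either list, a state shared by 38.9% of protein-coding genes.

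The promoter regions of the set were wide. All 7 in each list were wider than the median promoter region of that list. That median includes regions found in 1 list only, while the genes here were named in both lists. Their median was 22.4 kb in replicate 1 and 22.5 kb in replicate 2, against 8.08 and 6.84 kb for all 2701 and 2623 promoter regions. The widest were the internal Eya2 region in replicate 2 (53.4 kb) and the Six3 region in replicate 1 (42.6 kb), and the narrowest was the Eya4 region in replicate 2 (9.49 kb). By the mean of the replicates, the widest promoter region per gene measured 42.1 ± 15.9 kb at Eya2, 33.1 ± 13.4 kb at Six3, 28.9 ± 13.9 kb at Six2, 22.4 ± 0.079 kb at Six6, 14.1 ± 0.985 kb at Six4 and 11.9 ± 3.44 kb at Eya4 (SD, n = 2). The values of Eya2, Six3 and Six2 overlapped, and that of Six6 lay inside the ranges of Six2 and below those of Six3 and Eya2. Those of Six4 and Eya4 overlapped each other and lay below the other 4 genes. Of the set's regions, 10 of 12 in replicate 1 (83.3%) and 11 of 13 in replicate 2 (84.6%) overlapped a region of the other list by at least 1 bp, and all 14 promoter regions did. Over all regions the share was 61.1 and 61.2%, and over all promoter regions 73.7 and 73.4%. These shares were not matched for width, and the set's promoter regions were wider than most.

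**Figure D2:**
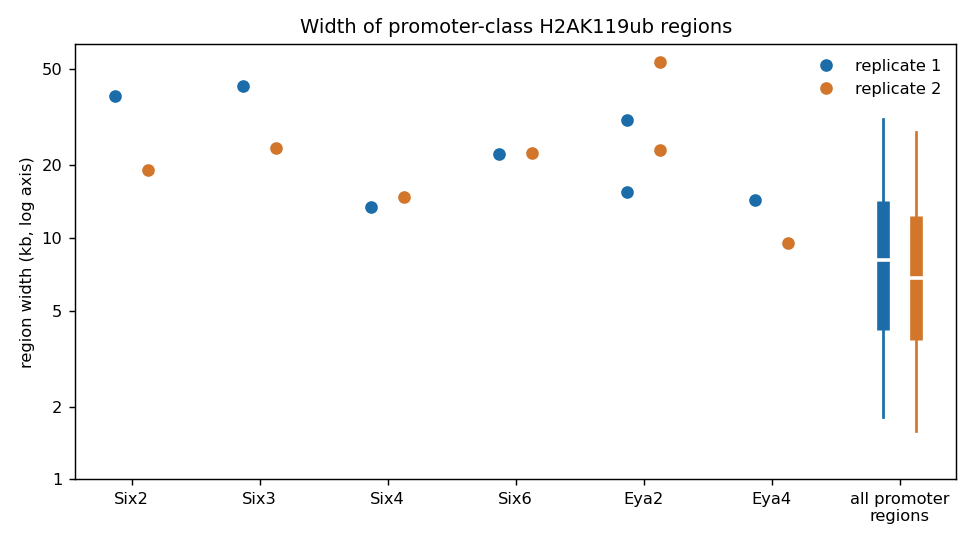
Widths in kb on a log axis of each promoter region at 6 Six-family and Eya genes, with points for replicate 1 and replicate 2, and at the right all promoter regions of each list (white line median, thick bar quartiles, thin line 5th to 95th percentile). All 14 points lie above the medians of 8.08 and 6.84 kb.

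The 6 covered genes differed in how much of the gene the regions covered. Six6 was covered by 100% in both replicates. Six3 was covered by 100% in replicate 1 and 96.9% in replicate 2, and Six4 by 64.3 and 60.04%. Coverage of Eya2 was 48.6% in replicate 1 and 68.1% in replicate 2, and that of Eya4 was 3.73 and 2.99%. Six2, at 100 and 37.6%, had the largest difference between replicates, so its mean (68.8% ± 44.2, SD, n = 2) cannot be placed apart from Six4 (62.1% ± 2.98) or Eya2 (58.4% ± 13.8). In bases, Eya4 had 9.25 and 7.40 kb covered, more than Six6 with 5.02 kb in each list, although its share was the lowest of the 6. A mean of at least 50% was reached by 5.09% of all protein-coding genes and by 43.9% of those named by promoter regions in both lists. Among the 9 genes, Six2, Six3, Six4, Six6 and Eya2 were at or above that level.

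**Figure D3:**
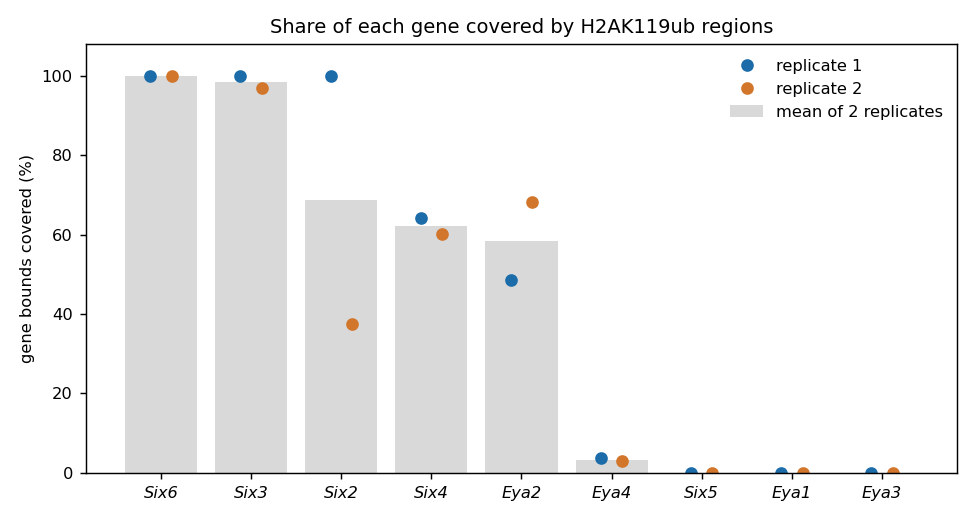
Percent of the gene bounds covered by regions at each of the 9 genes, as points for replicate 1 and replicate 2 and bars for their mean. Six6 and Six3 are covered almost entirely in both, the points of Six2 lie at 100 and 37.6%, Eya4 is near 3% and Six5, Eya1 and Eya3 are at 0.

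The sequence before the start was read for the 7 genes that the RefSeq promoter table of GRCm38.p6 holds, the assembly that mm10 also names. The next lines give the 250 bases before the start of Six2, Six3 and Six6, the eye, forebrain and kidney genes whose starts lay inside marked regions in both lists. Capitals mark every run of at least 10 bases, with at least 3 kinds of base in it, that a pair of these 3 sequences has in common on the strand of the gene.
Six2 (chr17:85688255-85688504, minus strand): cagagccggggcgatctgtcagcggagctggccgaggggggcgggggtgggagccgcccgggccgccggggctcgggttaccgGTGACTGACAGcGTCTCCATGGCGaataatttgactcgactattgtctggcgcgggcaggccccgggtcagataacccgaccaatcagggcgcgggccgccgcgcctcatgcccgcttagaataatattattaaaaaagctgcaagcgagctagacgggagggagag
Six3 (chr17:85620584-85620833, plus strand): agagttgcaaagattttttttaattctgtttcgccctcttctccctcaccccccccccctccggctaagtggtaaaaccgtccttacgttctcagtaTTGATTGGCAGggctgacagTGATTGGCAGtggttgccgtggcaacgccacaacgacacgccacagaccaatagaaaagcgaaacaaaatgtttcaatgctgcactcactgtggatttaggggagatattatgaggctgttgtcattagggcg
Six6 (chr12:72939632-72939881, plus strand): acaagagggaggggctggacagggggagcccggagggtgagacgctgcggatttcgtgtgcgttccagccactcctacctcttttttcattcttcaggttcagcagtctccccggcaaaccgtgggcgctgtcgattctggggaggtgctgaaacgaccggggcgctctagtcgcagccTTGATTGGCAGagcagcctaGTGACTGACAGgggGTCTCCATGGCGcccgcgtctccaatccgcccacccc

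Six2 and Six6 shared GTGACTGACAG and, just after it, GTCTCCATGGCG, in the same order. In Six6 these runs ended 41 and 26 bases before the start, and in Six2 they ended 157 and 144 bases before it. Of 17274 protein-coding genes in the table, 6 (0.0347%) held the first run on either strand in such a window and 8 (0.0463%) held the second. These counts include Six2 and Six6 themselves. The runs were picked because the genes share them, so the percentages do not tell whether the sharing is unusual. Six3 and Six6 shared TTGATTGGCAG, which 10 of the 17274 genes (0.0579%) held, themselves included. The last 10 letters of this run occurred again in Six3, nearer to the start. This run contains ATTGG, the opposite-strand form of the CCAAT box, a promoter element bound by the factor NF-Y. CCAAT on either strand occurred in 4 of the 7 genes (Six2, Six3, Six4 and Six6), against 39.9% of all genes in the table. Among the 21 pairs of the 7 genes, the pairs with a common run of at least 9 bases that held at least 3 kinds of base were Six2 with Six6, Six3 with Six6 and Six2 with Six5. How often pairs of other genes share such a run was not counted, so whether these pairs stand out is not known. Six3 and Eya4 shared a run of up to 13 bases made of C and T. The letters in common are a description of these windows, and no factor binding was measured.

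Six-family proteins themselves bind the MEF3 site, TCAGGTTTC, known from muscle promoters. That site was searched on both strands in the windows of all starts of each gene, and of the 7 genes it was found in Six4 alone. It lay on the opposite strand, 91 to 99 bases before the more downstream of the listed Six4 starts, inside the marked regions of both replicates. Of all genes with a listed start, 0.48% held it. The capitals in the next line mark it.
Six4 (chr12:73113326-73113354, minus strand): tggcctggggGAAACCTGAtcggccagat

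The number of CG dinucleotides did not separate marked from unmarked members with a listed start, which leaves out Eya1 and Eya2. Eya4 and Eya3 are shown as a marked and an unmarked Eya gene, with each CG in capitals.
Eya4 (chr10:23349944-23350193, minus strand): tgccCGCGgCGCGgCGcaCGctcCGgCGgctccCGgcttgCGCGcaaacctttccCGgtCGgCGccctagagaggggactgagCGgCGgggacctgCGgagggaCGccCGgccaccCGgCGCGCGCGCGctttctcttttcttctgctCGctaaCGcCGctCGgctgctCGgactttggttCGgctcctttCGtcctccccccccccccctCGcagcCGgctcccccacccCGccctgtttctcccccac
Eya3 (chr4:132638796-132639045, plus strand): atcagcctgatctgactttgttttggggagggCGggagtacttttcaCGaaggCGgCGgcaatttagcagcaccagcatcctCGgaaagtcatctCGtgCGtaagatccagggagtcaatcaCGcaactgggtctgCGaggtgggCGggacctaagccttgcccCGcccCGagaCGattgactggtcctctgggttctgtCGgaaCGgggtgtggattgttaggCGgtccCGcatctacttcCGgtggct

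Eya4 had 35 CG in the 250 bases, more than 96.5% of the genes in the table, and Six2 had 26. The other marked genes held 17 (Six6), 13 (Six4) and 10 (Six3). The unmarked genes lay among them, with 18 at Eya3 and 13 at Six5. Over the table, genes with promoter regions in both lists had a median of 15 CG (quartiles 8 and 23, n = 1444) and the other genes had a median of 9 (quartiles 3 and 18, n = 15830). The observed CG count divided by the count that the C and G content gives was 1.07 at Eya4, 1.02 at Six2, 0.691 at Six6, 0.673 at Six3 and 0.642 at Six4, and 0.857 at Eya3 and 0.546 at Six5. Marked and unmarked members thus overlapped in that ratio too, but only through Eya3, since Six5 lay below every marked member. The median ratio over the table was 0.669 for genes with regions in both lists and 0.524 for the others.

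**Figure D4:**
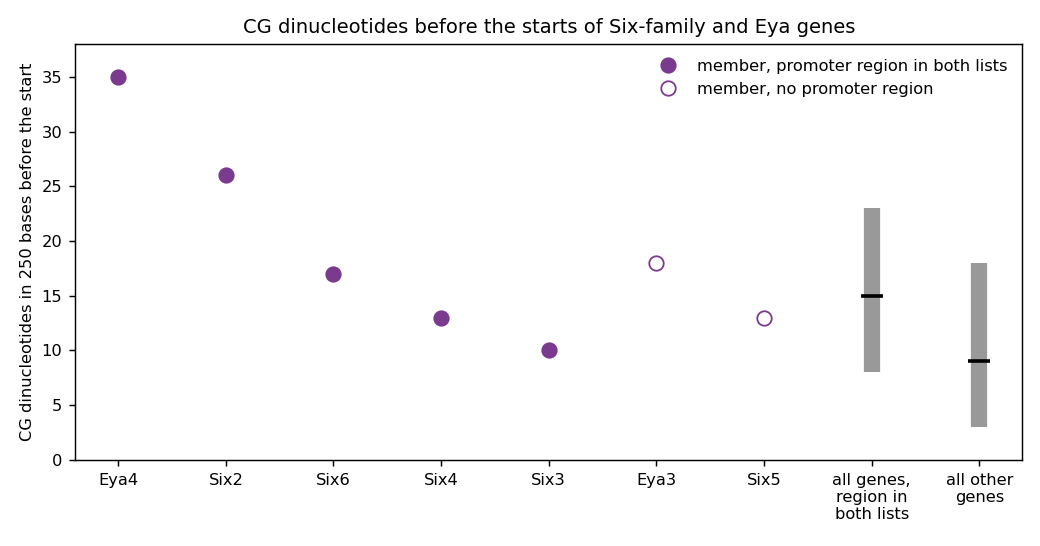
Number of CG dinucleotides in the 250 bases before the most upstream listed start, for the 5 marked (filled) and 2 unmarked (open) Six-family and Eya genes in the table, with medians (black) and quartiles (grey) for all genes with promoter regions in both lists and for all other genes. Eya3 at 18 and Six5 at 13 lie within the range of the marked genes, 10 to 35.

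Other genes of the network were read in the same way. Of 23 genes in the list (Pax and Dach partners, Six-family and Eya binding proteins, and genes known as targets or as acting in the same placodes), 12 were named by promoter regions in both lists (52.2%, against 8.82% of all protein-coding genes), 3 in 1 list only and 8 in neither. The Pax genes of muscle progenitors had the widest promoter regions, Pax3 with 74.5 and 68.1 kb and Pax7 with 61.4 and 58.3 kb. Those of Pax6, the eye master regulator, measured 46.7 and 43.9 kb, and those of Pax2, which acts in kidney and ear, 50.02 and 29.5 kb. Sall1, a kidney progenitor gene, had regions of 31.0 and 32.1 kb, and Neurog1, a sensory neuron factor, regions of 28.7 and 24.1 kb. The remaining 6 marked genes had smaller summed widths. They were Gdnf, the secreted inducer of the ureteric bud (14.1 and 12.7 kb), Atoh1 (10.4 and 9.93 kb), Sobp (14.2 and 6.06 kb), Ccnd1 (12.1 and 5.06 kb), Myod1 (6.19 and 8.19 kb) and Sox2 (6.42 and 2.925 kb). Regions of Sox2 were narrower than the median promoter region in both lists, that of Myod1 in replicate 1, and those of Sobp and Ccnd1 in replicate 2. The bounds of Ccnd1 were not overlapped by a region in both lists. The Dach genes Dach1 and Dach2, whose products act with Six-family and Eya proteins, had no promoter region in either list. The same held for Pax8, Skil, Myog, Slc12a2, Ezr and Fgf10. Of these, Skil and Slc12a2 were named by regions of other classes in both lists, though their bounds were not overlapped in both. This list and the 9 genes were drawn up with earlier results of these data known, so the shares are descriptions.

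Since several Six-family and Eya genes are active in muscle and mesenchyme, regions at markers of those cells and of the sorted epithelium were listed beside them. Of 6 epithelial genes (Epcam, Krt5, Krt14, Trp63, Cdh1 and Itga6), 0 were named by promoter regions in both lists and 1, Krt5, in replicate 2 alone. Of 4 muscle progenitor genes 3 were named in both (Pax3, Pax7 and Myod1, not Myf5), and these 3 were already counted in the network list. Of 4 mesenchyme genes 3 were named in both (Twist1, Pdgfra and Prrx1, while Col1a1 was named in replicate 1 alone). The share over all protein-coding genes was 8.82%, so 0 of 6 epithelial genes is near the background. The files hold no expression values, and these counts say where the mark lay and do not measure which cells were present.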

How the data were processed

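H2AK119ub ChIP-seq lists of 2 libraries from EpCAM-sorted P0 tongue epithelium were used. Each library has 1 deposited table of called regions, made per sample by the authors, with start and end coordinates in mm10, 1 of 4 location classes and gene names, per the file headers, and no score. Per the submitters' processing notes, the tools included Bowtie2 2.3.3 and SAMtools 0.1.19, without a stated role. On peak calling, any use of input, the coordinate base and the class definitions, nothing is given in the sources used here.

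Width was taken as end minus start. Gene bounds, for 21631 protein-coding genes (autosomes plus X), came from RefSeq for GRCm38.p6, and names were matched by symbol and then by unambiguous synonym. All 9 members matched, and 7 had a start in the RefSeq promoter table, which gave strands and sequences. The table can list several starts for a gene, and composition used the most upstream. For Six3 that start (85620834) lay well inside the gene bounds, and those of Six4, Eya3 and Eya4 also lay inside theirs. Mean ± SD is over 2 replicates. No test was run. Interval calculations were tested on simulated data.

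The members and lists were chosen with earlier results of these data known. Text names cover all members, genes inside their regions, flanking genes of members without regions and up to 6 genes of the network list with values, by summed width. The genes that name the nearest regions, the other genes of that list with the widths of those marked, and the common runs were chosen after their values were seen. Some neighbouring genes are not reported here. Python 3.11.15, numpy 2.4.6, pandas 2.3.3 and matplotlib 3.10.9 were used.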

Additional observations from a re-analysis of the deposited data

How the results depend on the processing

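For 12 results, 43 values were computed under alternatives. Of these, 37 stayed within 1.5 times the count or within 1 SD of the replicates, and 6 moved further. The 6 marked genes remained the same in replicate 1 or 2 alone, against 12.8 and 12.4% of all protein-coding genes. With regions above the median width only they also remained, against 6.31%. They remained with regions within 1000, 5000 or 50000 bp of a gene end, which took in 9.93, 14.1 and 36.3% of all genes. None of these settings could remove a gene. Genes named in both lists are in each list, and their promoter regions lay over a gene end and exceeded the median width. The settings with a single replicate or a gene end could only add genes of the set, and none was added. When regions of the replicates had to overlap by at least 50% of both, 5 remained, without Six2, against 6.39% of all genes. The share of the set's regions found in both lists (84.0%) was 64.1% at that overlap, 87.5% by gene name only and 86.7% by gene bounds only. The median width of promoter regions (22.4 kb) was 24.9 kb with regions closer than 5000 bp joined and 23.7 kb with the widest region per gene, a setting added after seeing the data. Coverage of Eya4 was 4.60% with 5000 bp added to each side, against 3.36%. Leaving out a replicate of 2 always stays within 1 SD, so it could not move a width or a coverage, and the coverage of Six2 still went between 37.6 and 100%. The network list had 12 to 14 marked genes under its alternatives, where 8.82 to 14.1% of all protein-coding genes met the same rules. No paired analysis was possible because the 2 replicates form 1 group. Without heights or counts, depth limits every absence of a region, which is not shown to be an absence of the mark.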

Other observations

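Genes with the most similar pair of widths were found by the least sum of absolute log2 differences of the widest promoter regions over the 2 libraries, among the 1908 genes named in both lists. For Six6 they were Foxb1 (22.0 and 22.6 kb) and Irx2 (22.4 and 22.0 kb), and for Six4 they were Gdf11 and Shisa3. Those nearest to Six2 were Bcan and Foxo6, to Six3 Tlx3 and Skap2, to Eya2 Tnfaip2 and Exoc3l4, and to Eya4 Wnt16 and Sstr2. Tnfaip2 and Exoc3l4 had the same width in replicate 2 (53.9 kb), so they may not be separate matches. In replicate 1 they had 30.7 and 27.6 kb. With 2 libraries, many genes can be this close by width alone.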
